A study of Homo sapiens with 12 samples.

Results

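A set of cadherins listed as classical was followed in human embryonal carcinoma cells after the pluripotency factor SOX2 was knocked down. The set was 10 genes given by name, CDH1, CDH2, CDH3, CDH4, CDH6, CDH8, CDH10, CDH11, CDH12 and CDH13, and a gene was measured where the platform table paired at least 1 probe set with that gene alone. This held for 8 of the 10, each with 1 probe set, out of 18404 genes measured. CDH4 and CDH13 were not analysed here. The question was whether expression switched between CDH1 and CDH2 and whether that differed between the lines.

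RNA was profiled in 2 human embryonal carcinoma cell lines, 2102Ep, called nullipotent because retinoic acid does not readily make it differentiate, and NTera-2, which is pluripotent, on Affymetrix Human Gene 1.0 ST arrays. There were 4 groups of 3 arrays, and the labels call the replicates biological. 2102Ep control and NTera-2 control cells received Silencer Select Negative Control #1, a non-targeting siRNA. 2102Ep siSOX2 and NTera-2 siSOX2 cells received 1 siRNA against SOX2. All groups were seeded 24 hours ahead, transfected for 6 hours and kept for a further 72 hours. 2102Ep was transfected with Lipofectamine 2000 and NTera-2 with Lipofectamine RNAiMAX, and the amount of siRNA also differed, so the line, the reagent and the amount cannot be told apart. Passages were given as 35 to 50 for 2102Ep and 40 to 50 for NTera-2. A second siRNA against SOX2, a rescue and untransfected cells were not analysed here.

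Classical cadherins are calcium-dependent adhesion molecules that bind like molecules on neighbouring cells and hold the actin cytoskeleton through catenins at their inner end. Type I cadherins, such as the epithelial CDH1 and the neural and mesenchymal CDH2, share a conserved adhesive motif, and type II cadherins, such as CDH6 and CDH11, bind through a different interface. In epithelial-mesenchymal transition (EMT), as when cells leave the epiblast at gastrulation, CDH1 is typically lost while CDH2 is gained, and this exchange is called the cadherin switch. Pluripotent human cells grow as epithelial colonies held together by CDH1.

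Signals are given on the log2 scale of the deposited values. The response is the siSOX2 mean minus the control mean of the same line. "Rose" and "fell" are used for a limma adjusted p of 0.05 or less, and a gene is said to be called where its change was also at least 2-fold with an unadjusted p of 0.01 or less. Errors of means are SDs over 3 arrays and errors of changes are SEs of the fit. Because RNA came from bulk cultures, fewer cells expressing a gene and less RNA per cell cannot be told apart.

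RNA of SOX2, the target of the siRNA, fell much further in 2102Ep than in NTera-2. Its signal went from 12.23 ± 0.0434 (SD, n = 3) to 9.09 ± 0.259 (SD, n = 3) in 2102Ep, an 8.79-fold fall, and from 12.56 ± 0.0657 (SD, n = 3) to 11.91 ± 0.0492 (SD, n = 3) in NTera-2, a 1.56-fold fall. SOX2 protein was not analysed here. The unequal fall of SOX2 RNA stands beside every difference between the lines below, and its part in them was not tested. Array medians ran from 7.433 to 7.583, the highest being NTera-2 siSOX2 replicate 3, which also gave the highest signal of its group for all 8 cadherins. With each array centred on its median, as many cadherins were called in every comparison as without it.

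Most of the 8 cadherins responded to siSOX2, but not as a switch from CDH1 to CDH2. In 2102Ep, CDH2, CDH10 and CDH11 were called higher and CDH1 rose by less than 2-fold. In NTera-2, CDH1 was called higher, CDH6 was called lower and CDH2 fell by less than 2-fold. CDH1 fell in neither line. In 2102Ep 3 of 8 cadherins were called, against 1.98% of all genes, and in NTera-2 2 of 8 were called, against 0.657% of all genes. By adjusted p alone the counts were 5 of 8 in 2102Ep, against 12.7% of all genes, and 5 of 8 in NTera-2, against 4.94%. The median response of the 8 cadherins was 0.54 in 2102Ep and 0.31 in NTera-2, where the medians over all genes were -0.01 and 0.04.

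**Figure D1:**
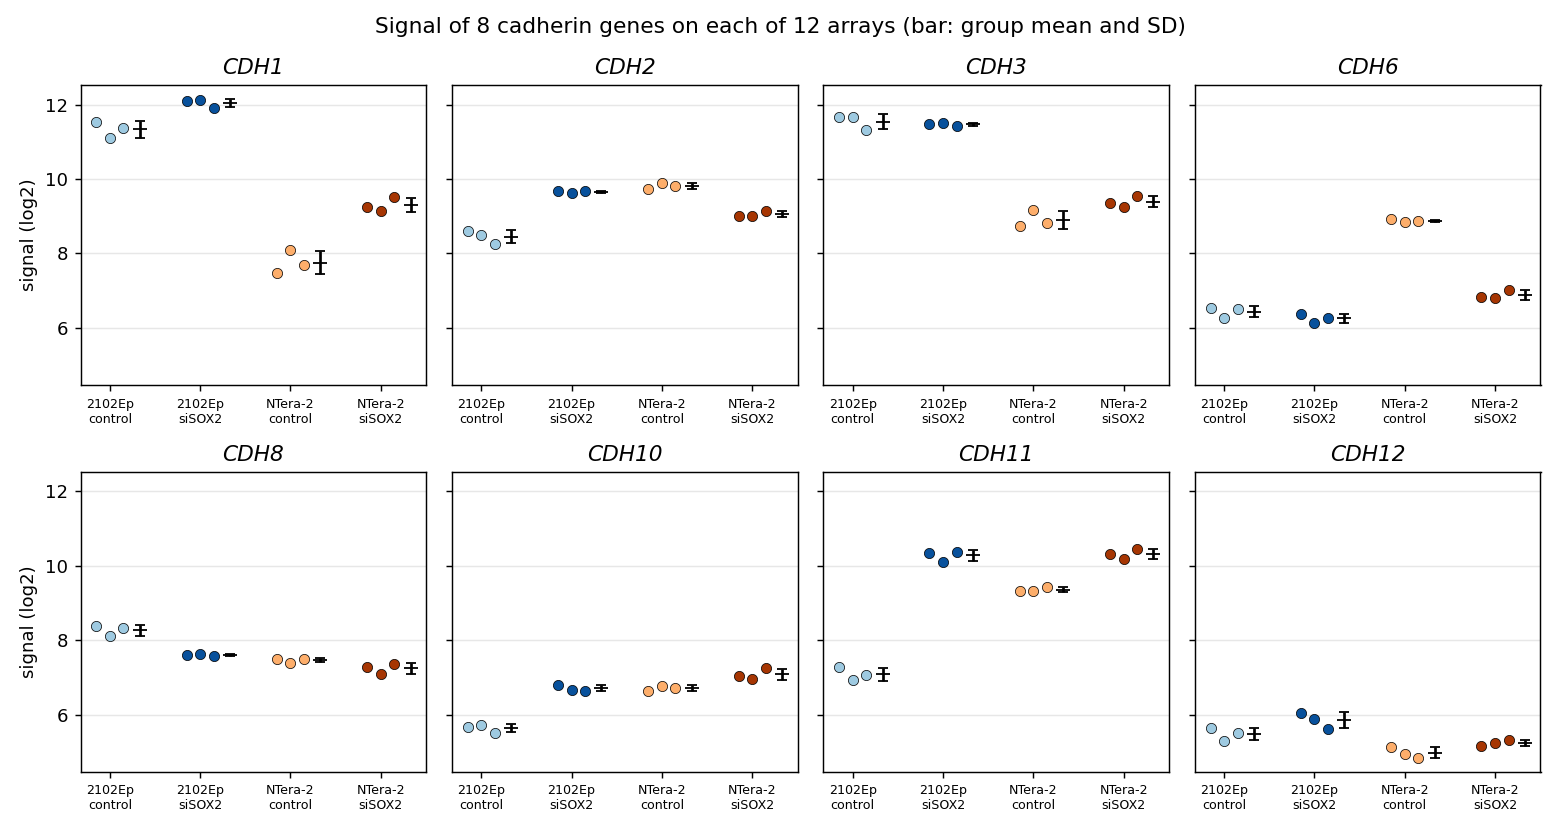
Signal (log2, vertical axis) of each of the 8 cadherin genes on the 12 arrays, in columns for the 4 groups. Each point is an array and the bar beside it the group mean with its SD (n = 3). CDH11 in 2102Ep moves from 7.08 to 10.27 and CDH6 in NTera-2 from 8.87 to 6.88, while CDH2 moves up in 2102Ep and down in NTera-2.

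CDH1 encodes E-cadherin, the adhesion molecule of epithelial and undifferentiated pluripotent cells (gene ID 999, chromosome 16, probe set 7996837). Its signals in 2102Ep were 11.53, 11.09 and 11.37 on the control arrays and 12.10, 12.12 and 11.91 on the siSOX2 arrays. In NTera-2 they were 7.48, 8.09 and 7.68 on the control arrays and 9.23, 9.13 and 9.50 on the siSOX2 arrays. All siSOX2 arrays lay above all control arrays of the same line, and all 2102Ep arrays lay above all NTera-2 arrays. CDH1 rose by 0.71 ± 0.153 in 2102Ep, a 1.64-fold change below the 2-fold threshold (adjusted p = 0.00363), and by 1.54 ± 0.153 in NTera-2, a 2.91-fold change (adjusted p = 5.37e-06). The response was smaller in 2102Ep by 0.83 ± 0.216 (adjusted p = 0.0314, limma), and this difference was less firm than either response. Across the alternatives run, its adjusted p ranged from 0.00638 to 0.0955. It was above 0.05 under median centring, under a second quantile normalization and without any 1 of 8 arrays. These were 2102Ep control replicate 1, each 2102Ep siSOX2 array, NTera-2 control replicates 1 and 3, and NTera-2 siSOX2 replicates 1 and 3.

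CDH2 encodes N-cadherin, which joins neural and mesenchymal cells (gene ID 1000, chromosome 18, probe set 8022674). Its signals in 2102Ep were 8.59, 8.49 and 8.25 on the control arrays and 9.68, 9.62 and 9.68 on the siSOX2 arrays. In NTera-2 they were 9.72, 9.89 and 9.81 on the control arrays and 9.02, 8.99 and 9.14 on the siSOX2 arrays. The groups of a line did not overlap, and they were ordered in opposite directions in the 2 lines. CDH2 rose by 1.21 ± 0.106 in 2102Ep, 2.32-fold (adjusted p = 3.35e-07), and fell by 0.76 on the log2 scale in NTera-2, to 59.2% of the control level (SE 0.106, adjusted p = 0.000208). The responses differed by 1.97 ± 0.15 (adjusted p = 2.23e-07), and over the alternatives this difference stayed between 1.87 and 2.04. 

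For CDH2 and CDH10, which were called higher in 2102Ep, the 250 bases before a transcription start are shown to give the sequence context of these genes. The sequences are RefSeq's on GRCh38.p14, read 5′ to 3′ on the minus strand at chr18:28177131-28177380 and chr5:24644979-24645228, and capitals mark the pentamer of the CCAAT box on either strand, here in its reverse form ATTGG.
CDH2: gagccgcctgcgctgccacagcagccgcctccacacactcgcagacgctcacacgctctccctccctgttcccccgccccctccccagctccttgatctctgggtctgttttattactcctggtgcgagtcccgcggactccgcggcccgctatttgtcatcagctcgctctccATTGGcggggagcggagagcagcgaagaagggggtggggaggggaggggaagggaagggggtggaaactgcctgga
CDH10: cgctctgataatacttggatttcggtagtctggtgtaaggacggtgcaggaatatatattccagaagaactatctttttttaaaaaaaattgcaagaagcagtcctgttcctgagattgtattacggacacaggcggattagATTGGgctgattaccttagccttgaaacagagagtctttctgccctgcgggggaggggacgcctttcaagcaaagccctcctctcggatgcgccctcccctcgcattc

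The promoter table held 8 promoters of 300 bases for 4 of the cadherins, CDH2, CDH8, CDH10 and CDH12. Letters were searched on both strands. CCAAT was in 5 of the 8, at least 1 for each of the 4 genes, and in 34.6% of all 35116 promoters in the table. CAGGTG, the E-box that SNAI and ZEB factors recognise, was in none of the 8 and in 20.6% of all promoters. ACAATG, a core that SOX factors bind, was in 1 promoter of CDH12 and in 10.8% of all, and ACAAAG, shared by SOX and LEF factors, in another promoter of CDH12 and in 16.1% of all. These windows hold letters only and were not set against any measurement of binding.

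The difference between CDH2 and CDH1 on the same array was used to describe the balance of the pair. Probe sets differ in brightness, so its sign does not say which RNA was more abundant, and only its change within a line is read. On the 2102Ep control arrays it was -2.94, -2.60 and -3.12, and on the 2102Ep siSOX2 arrays -2.42, -2.50 and -2.23. On the NTera-2 control arrays it was 2.24, 1.80 and 2.13, and on the NTera-2 siSOX2 arrays -0.22, -0.14 and -0.36. The balance moved by 0.50 towards CDH2 in 2102Ep and by -2.30, that is towards CDH1, in NTera-2. The groups did not overlap in either line, and the balance is a description, on which no test was run. In 2102Ep the shift came with a rise of both genes, and in NTera-2 with CDH1 rising and CDH2 falling, the reverse of the direction that defines a switch to CDH2.

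**Figure D2:**
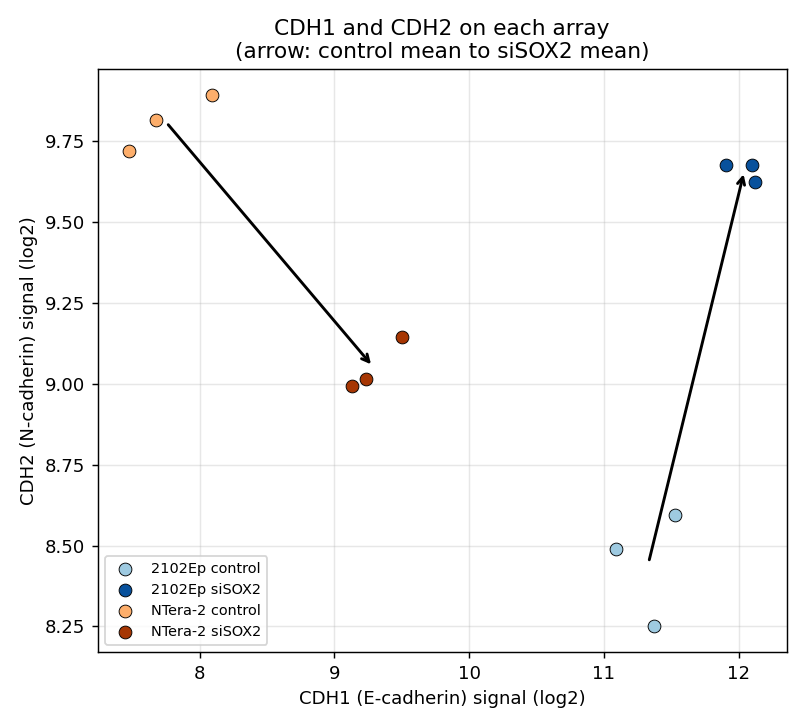
CDH1 signal (log2, horizontal axis) against CDH2 signal (log2, vertical axis), 1 point per array with a colour for each of the 4 groups, with an arrow from the control mean to the siSOX2 mean of each line. In 2102Ep the arrow runs up and to the right, to 12.04 for CDH1 and 9.66 for CDH2, and in NTera-2 down and to the right, to 9.29 and 9.05.

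CDH3 encodes P-cadherin, an epithelial type I cadherin whose gene lies next to CDH1 on chromosome 16. Its signals were 11.54 ± 0.196 (SD, n = 3) in 2102Ep control, 11.47 ± 0.0360 (SD, n = 3) in 2102Ep siSOX2, 8.90 ± 0.237 (SD, n = 3) in NTera-2 control and 9.39 ± 0.151 (SD, n = 3) in NTera-2 siSOX2 cells. The change in 2102Ep was -0.07 ± 0.131 (adjusted p = 0.823), with a 95% interval from -0.35 to 0.20, and its arrays overlapped. In NTera-2 CDH3 rose by 0.49 ± 0.131 (adjusted p = 0.0382), 1.40-fold. That rise held only just, since its adjusted p ran from 0.0113 to 0.198 over the alternatives. It was 0.0941 under median centring, 0.053 to 0.0545 without any 1 of the 2102Ep siSOX2 arrays, 0.195 or 0.172 without NTera-2 control replicate 1 or 3, and 0.099 or 0.198 without NTera-2 siSOX2 replicate 1 or 3. The responses of the lines differed by -0.56 ± 0.185 (adjusted p = 0.103), although without 2102Ep control replicate 3 or NTera-2 control replicate 2 this became 0.0309 or 0.0310. The gene after CDH1 on the chromosome, TANGO6, changed by -0.13 in 2102Ep (adjusted p = 0.597) and 0.16 in NTera-2 (adjusted p = 0.607).

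CDH11 encodes OB-cadherin, a type II cadherin of mesenchymal cells and osteoblasts (gene ID 1009, chromosome 16, probe set 8001800). Its signals in 2102Ep were 7.27, 6.93 and 7.05 on the control arrays and 10.34, 10.11 and 10.38 on the siSOX2 arrays. In NTera-2 they were 9.31, 9.32 and 9.43 on the control arrays and 10.30, 10.17 and 10.44 on the siSOX2 arrays. No siSOX2 array of either line overlapped its controls, and the siSOX2 arrays of the 2 lines did overlap each other. CDH11 rose 9.15-fold in 2102Ep (3.19 ± 0.116, adjusted p = 5.17e-12) and 1.93-fold in NTera-2 (0.95 ± 0.116, adjusted p = 5.38e-05), the latter just under the 2-fold threshold and past it, at 1.02, without NTera-2 siSOX2 replicate 2. The responses differed by 2.24 ± 0.164 (adjusted p = 1.39e-07). CDH11 was the cadherin with the widest rise of the 8 in 2102Ep.

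CDH6 encodes K-cadherin, a type II cadherin of the developing kidney, neural tube and neural crest (gene ID 1004, chromosome 5, probe set 8104663). Its signals in NTera-2 were 8.91, 8.84 and 8.86 on the control arrays and 6.81, 6.80 and 7.03 on the siSOX2 arrays. In 2102Ep they were 6.53, 6.26 and 6.50 on the control arrays and 6.38, 6.14 and 6.26 on the siSOX2 arrays. The NTera-2 groups were far apart and the 2102Ep groups overlapped. CDH6 fell by 1.99 on the log2 scale in NTera-2, to 25.1% of the control level (SE 0.109, adjusted p = 7.44e-09), and changed by -0.17 ± 0.109 in 2102Ep (adjusted p = 0.398), with a 95% interval from -0.40 to 0.06. The responses differed by 1.82 ± 0.154 (adjusted p = 7.66e-07). CDH6 was thus the cadherin with the deepest fall of the 8. In 2102Ep control cells it was already dim, with a mean signal of 6.43, above that of 20.3% of genes. The share was 67.2% in NTera-2 control and 28.1% in NTera-2 siSOX2 cells. A fall had less room to show in 2102Ep, and the part of the starting level in the difference was not tested.

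CDH10, a type II cadherin of the brain, gave signals in 2102Ep of 5.65, 5.72 and 5.52 on the control arrays and 6.79, 6.66 and 6.65 on the siSOX2 arrays. In NTera-2 they were 6.64, 6.78 and 6.72 on the control arrays and 7.03, 6.97 and 7.24 on the siSOX2 arrays. The groups of each line did not overlap, and the 2102Ep siSOX2 arrays overlapped the NTera-2 control arrays. CDH10 rose 2.10-fold in 2102Ep (1.07 ± 0.105, adjusted p = 1.29e-06), and its change in NTera-2 was 0.37 ± 0.105 (adjusted p = 0.0555; 0.0411 without 2102Ep control replicate 2 or 3). The responses differed by 0.70 ± 0.149 (adjusted p = 0.00775), under 2-fold. CDH10 was a dim gene, above 10.7% of genes in 2102Ep control and 24.7% in 2102Ep siSOX2 cells.

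CDH8, a type II cadherin of the nervous system, was the only one of the 8 cadherins that fell in 2102Ep. Its signals there were 8.38, 8.10 and 8.32 on the control arrays and 7.61, 7.62 and 7.57 on the siSOX2 arrays, a fall by 0.67 on the log2 scale to 63.0% of the control level (SE 0.107, adjusted p = 0.000273). In NTera-2 the control arrays averaged 7.46 ± 0.0555 (SD, n = 3) and the siSOX2 arrays 7.24 ± 0.147 (SD, n = 3), which is -0.22 ± 0.107 between them (adjusted p = 0.354). The responses differed by -0.45 ± 0.151 (adjusted p = 0.116; 0.0416 without 2102Ep control replicate 2). CDH8 and CDH11 are neighbours on chromosome 16, followed by CDH5, the cadherin of endothelial cells. In 2102Ep CDH11 rose while the genes on both sides of it fell, CDH5 by 0.79 on the log2 scale (adjusted p = 0.000283).

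CDH12, a further type II cadherin of the brain, had signals of 5.47 ± 0.164 (SD, n = 3) and 5.85 ± 0.215 (SD, n = 3) in control and siSOX2 2102Ep cells, and of 4.97 ± 0.145 (SD, n = 3) and 5.23 ± 0.0811 (SD, n = 3) in NTera-2. Its change was 0.37 ± 0.125 in 2102Ep (adjusted p = 0.0612) and 0.26 ± 0.125 in NTera-2 (adjusted p = 0.348), and the 2 changes differed by 0.11 with a 95% interval from -0.26 to 0.49. The 2102Ep p was 0.0426 without 2102Ep control replicate 1 or under median centring, 0.0240 without 2102Ep siSOX2 replicate 3 and 0.0288 after a second quantile normalization. CDH12, CDH10 and CDH6 lie along chromosome 5, with CDH9 between the last 2 of them. CDH9, another neural cadherin, changed by -0.13 in 2102Ep (adjusted p = 0.757) and 0.48 in NTera-2 (adjusted p = 0.171), so of these 4 genes CDH10 was called higher in 2102Ep, CDH6 lower in NTera-2, and the other two in neither line.

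**Figure D3:**
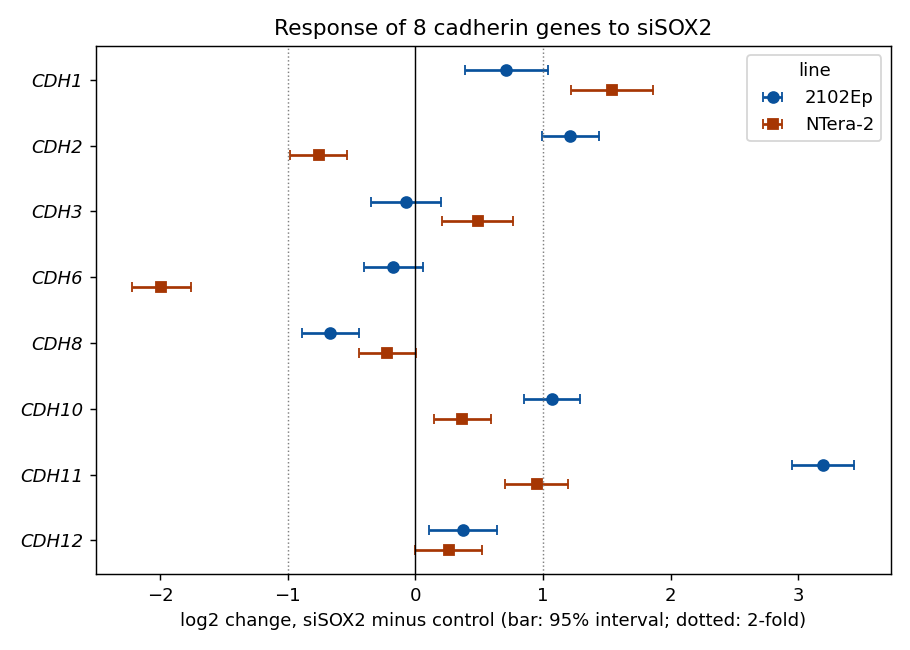
Response to siSOX2 (log2, siSOX2 mean minus control mean, horizontal axis) of the 8 cadherin genes in 2102Ep (circles) and NTera-2 (squares), with 95% intervals from the fit and dotted lines at a 2-fold change. CDH2 lies on opposite sides of 0 in the 2 lines, CDH11 is at 3.19 and 0.95, and CDH6 is at -0.17 and -1.99.

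The difference in response between the lines was called for CDH2, CDH6 and CDH11, which is 3 of 8 against 1.66% of all genes, and 5 of 8 passed by adjusted p alone against 5.20% of all genes, the other two being CDH1 and CDH10. For CDH2, CDH6, CDH10 and CDH11 the 2102Ep response was the higher one. For CDH1 it was the lower one, with the reservations given above. For 5 of 8 cadherins in 2102Ep, against 25.2% of all genes, and for all 8 measured cadherins in NTera-2, against 21.3% of all genes, the siSOX2 and control arrays did not overlap. The overlapping genes in 2102Ep were CDH3, CDH6 and CDH12.

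Before any knock-down of SOX2, the lines already differed in their cadherins. In control cells 6 of 8 cadherins were called between the lines, against 7.76% of all genes, and all 8 measured ones had arrays that did not overlap, against 50.5% of all genes. The type I epithelial genes were lower in NTera-2, CDH1 with a difference of -3.58 (8.36% of the 2102Ep level, adjusted p = 1.4e-11) and CDH3 with one of -2.64 (16.1%, adjusted p = 8.71e-11). CDH2 (2.57-fold), CDH6 (5.43-fold), CDH10 (2.12-fold) and CDH11 (4.84-fold) were higher in NTera-2, with adjusted p from 2.3e-11 to 3.04e-07. The differences of CDH8 (-0.81, adjusted p = 9.66e-06) and CDH12 (-0.50, adjusted p = 0.00361) were under 2-fold. The control arrays are also those of the responses above, so the starting levels and the responses are not independent and are only given side by side.

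In siSOX2 cells the lines still differed at least 2-fold in CDH1 and CDH3 and by less in the others. CDH1 remained 6.74-fold lower in NTera-2 (-2.75 ± 0.153, adjusted p = 3.14e-10) and CDH3 4.21-fold lower (-2.07 ± 0.131, adjusted p = 1.62e-09). These were the 2 of 8 cadherins called, against 7.65% of all genes, and 7 of 8 did not overlap, against 53.2% of all genes. CDH2 was now 1.52-fold lower in NTera-2 (-0.61 ± 0.106, adjusted p = 0.000174), where in control cells it had been higher. CDH11 differed by 0.03 ± 0.116 (adjusted p = 0.868), with a 95% interval from -0.22 to 0.27, and the sign of this value changed with the scaling and with single arrays. CDH6, CDH8, CDH10 and CDH12 differed by 0.62, -0.36, 0.38 and -0.61, with adjusted p from 0.000188 to 0.0111, and that of CDH8 was 0.0602 without NTera-2 siSOX2 replicate 2. The distance between the line means was smaller in siSOX2 than in control cells for 7 of 8 cadherins, all but CDH12, and for 51.2% of all genes. These shares are not alike, since 6 of 8 cadherins were called between the control lines, against 7.76% of all genes. CDH2 counts as closer although its difference changed sign, from 1.36 to -0.61. No approach of the lines particular to cadherins is read from the count.

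**Figure D4:**
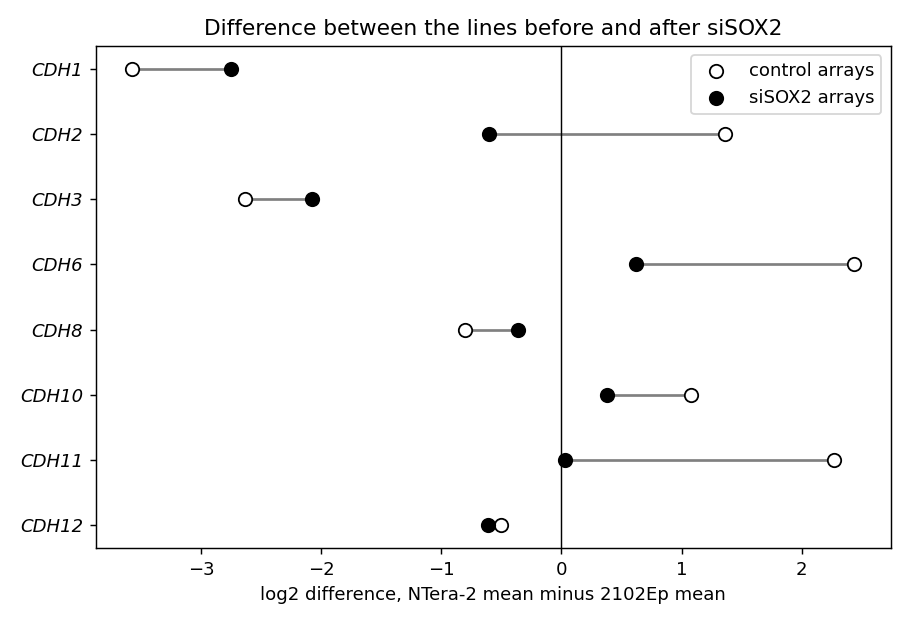
Difference between the lines (log2, NTera-2 mean minus 2102Ep mean, horizontal axis) for the 8 cadherin genes, in control arrays (open points) and in siSOX2 arrays (filled points), with a line joining the points of a gene. CDH11 goes from 2.27 to 0.03 and CDH2 crosses 0, from 1.36 to -0.61, while CDH1 stays at -2.75 or lower.

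Read by gene, the order of the levels was as follows. CDH1 and CDH3 were highest in 2102Ep and lowest in NTera-2 control cells, and the control and siSOX2 2102Ep arrays overlapped for CDH3. CDH2 was lowest in 2102Ep control cells, and its 2102Ep siSOX2 arrays lay just below those of NTera-2 control cells. CDH11 was also lowest in 2102Ep control cells and highest in the siSOX2 cells of both lines, which overlapped. CDH6 was highest in NTera-2 control cells and lowest in 2102Ep, whose groups overlapped.

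Catenins and their partners join the inner end of cadherins to actin. Of 12 measured catenins and cadherin anchors, 1 was called higher in 2102Ep, 0 in NTera-2 and 1 in the difference between the lines. The shares of all genes called were 1.98%, 0.657% and 1.66%. The median responses of the list were 0.12 in 2102Ep and 0.10 in NTera-2. The called gene was JUP, plakoglobin, a catenin of adherens junctions and desmosomes, at 1.18 ± 0.117 in 2102Ep (adjusted p = 1.42e-06) and 0.13 in NTera-2. Its difference of 1.05 (adjusted p = 0.00064) dropped under 2-fold, to 0.94 and 0.98, without 2102Ep control replicate 2 or NTera-2 control replicate 2. LIMA1, which links the cadherin-catenin complex to actin, rose in both lines by less than 2-fold, by 0.88 in 2102Ep (adjusted p = 6.24e-05) and 0.43 in NTera-2 (adjusted p = 0.0494). The NTera-2 rise of LIMA1 only just passed, and it was not followed under the alternatives. CTNNB1, beta-catenin, changed by 0.19 (adjusted p = 0.357) and 0.16 (adjusted p = 0.621).

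Of 13 other cadherin genes, 0 were called in 2102Ep, in NTera-2 or in the difference between the lines, where 1.98%, 0.657% and 1.66% of all genes were called, and no contrast is drawn with the 8 cadherins of the set. By adjusted p alone 3 passed in 2102Ep and 0 in NTera-2, against 12.7% and 4.94% of all genes. These were CDH5 as given above, CDH24 at 0.54 (adjusted p = 0.0128) and CDH26 at -0.29 (adjusted p = 0.048, above 0.05 under most alternatives). CDH9 was called higher in NTera-2 than in 2102Ep before and after siSOX2, by 3.43 and 4.04. Of 7 desmosomal cadherins, which anchor intermediate filaments, 0 were called in either line, and at the shares given above no contrast is drawn. DSC2 rose by 0.67 in 2102Ep (adjusted p = 0.00227), and DSC3, the neighbour of CDH2 on chromosome 18, fell by 0.56 on the log2 scale in NTera-2 (adjusted p = 0.0404). The fall of DSC3 was not firm, since its adjusted p ran from 0.0018 to 0.164 when 1 array was left out. Among 10 measured nectins and other adhesion molecules 0 were called in either line, and again no contrast is drawn. NCAM1, the neural cell adhesion molecule, rose in both lines, by 0.81 in 2102Ep (adjusted p = 0.000235) and 0.87 in NTera-2 (adjusted p = 0.000341).

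Several factors known to repress transcription of CDH1 rose in the groups in which CDH1 rose. Of 12 measured, 3 were called higher in 2102Ep, 1 in NTera-2 and 2 in the difference between the lines, and none was called lower. Over all genes 1.98%, 0.657% and 1.66% were called in these comparisons. SNAI2, known as Slug, rose by 3.22 ± 0.165 in 2102Ep (adjusted p = 3.3e-10) and by 2.07 ± 0.165 in NTera-2 (adjusted p = 4.59e-07). SNAI1, known as Snail, rose by 1.57 ± 0.135 in 2102Ep (adjusted p = 2.67e-07) and changed by 0.27 in NTera-2 (adjusted p = 0.382), and its responses differed by 1.30 (adjusted p = 0.000338). The difference for SNAI2, 1.15 (adjusted p = 0.0058), was 0.96 without NTera-2 control replicate 2. ZEB2 rose by 1.14 in 2102Ep (adjusted p = 7.12e-07) on its brightest probe set and by 0.59 when its probe sets were averaged, and by 0.46 in NTera-2 (adjusted p = 0.0159). TWIST1 and TCF4 rose in both lines by less than 2-fold, by 0.57 and 0.67 in 2102Ep and by 0.47 and 0.51 in NTera-2. KLF8 was at 5.70 in control and 6.39 in siSOX2 NTera-2 cells, and at 7.81 and 7.88 in those of 2102Ep. The median response of the list was 0.26 in 2102Ep and 0.21 in NTera-2. Between the control lines, 3 of the 12 were called higher in NTera-2, where CDH1 was lower, and 1, KLF8, was called lower. The share of all genes called there was 7.76%. In 2102Ep and NTera-2 control cells SNAI2 was at 6.71 and 8.36, ZEB1 at 6.39 and 8.38, and ZEB2 at 6.18 and 8.33. The part of these factors in the level of CDH1 was not tested.

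Regulators of epithelial genes moved in both directions. Of 13 measured, 2 were called higher and 1 lower in 2102Ep, against 1.98% of all genes called in either direction. In NTera-2 1 was called higher, against 0.657% of all genes. GRHL2, a grainyhead factor that activates CDH1, rose by 1.38 ± 0.113 in 2102Ep (adjusted p = 1.45e-07), and the grainyhead factor GRHL3 rose by 0.88 in 2102Ep (adjusted p = 5.6e-05) and 1.87 ± 0.121 in NTera-2 (adjusted p = 5.71e-08). TFAP2A, a surface ectoderm and neural crest factor, rose by 2.44 ± 0.118 in 2102Ep (adjusted p = 1.48e-10) and changed by -0.05 in NTera-2 (adjusted p = 0.915). KLF4, a pluripotency and epithelial factor, fell by 1.38 on the log2 scale in 2102Ep (adjusted p = 2.6e-08) and by 0.73 in NTera-2 (adjusted p = 0.000161). The responses differed between the lines by 2.49 for TFAP2A, 1.23 for GRHL2 and -1.06 for TFAP2C, the last of which came under 2-fold, at -0.99, after a second quantile normalization and, at -0.98, without 2102Ep siSOX2 replicate 3 or NTera-2 control replicate 1.

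Among 17 measured genes of cadherin cleavage and turnover 0 were called in either line, where 1.98% and 0.657% of all genes were called. No contrast is drawn from this count. By adjusted p alone 4 passed in 2102Ep and 2 in NTera-2, against 12.7% and 4.94% of all genes. MMP9, a matrix metalloproteinase, rose by 0.99 in 2102Ep (adjusted p = 3.35e-06), at the threshold and past it under median centring (1.01), a second quantile normalization and without 2102Ep control replicate 1 or 2102Ep siSOX2 replicate 1. Its response was 1.20 above that in NTera-2 (adjusted p = 6.56e-05). MMP14, a membrane-bound metalloproteinase, rose by 0.85 in 2102Ep (adjusted p = 1.7e-05) and 0.46 in NTera-2 (adjusted p = 0.014). TMTC2, which adds O-mannose sugars to cadherins, rose by 0.82 in NTera-2 (adjusted p = 0.000442).

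**Figure D5:**
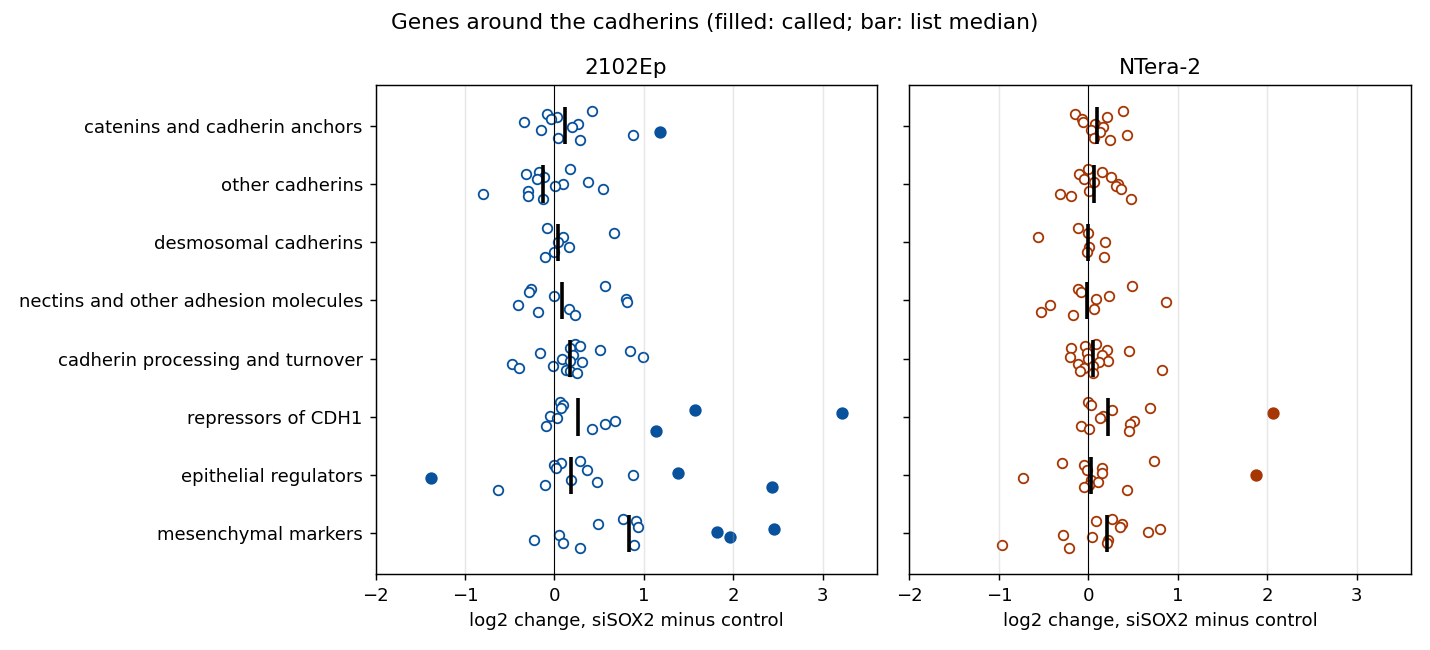
Response to siSOX2 (log2, horizontal axis) of the measured genes of 8 lists, in 2102Ep (left) and NTera-2 (right). Each point is a gene, filled where called, and the bar is the median of the list. Repressors of CDH1 reach 3.22 in 2102Ep and 2.07 in NTera-2, and mesenchymal markers have medians of 0.83 and 0.21.

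Mesenchymal and pluripotency markers were set beside the cadherins as measured facts, and their part in the cadherin changes was not tested. Of 12 mesenchymal markers, 3 were called higher in 2102Ep and 0 in NTera-2, against 1.98% and 0.657% of all genes. The matrix protein gene FN1 rose by 2.45 in 2102Ep and 0.80 in NTera-2, and the integrin gene ITGA5 by 1.82 and 0.66. MMP2 rose by 1.96 in 2102Ep alone by this test. Without 2102Ep control replicate 1 the count in 2102Ep was 5. TNC, a matrix protein gene, fell by 0.96 on the log2 scale in NTera-2 (adjusted p = 0.00046) and was called there under median centring and without NTera-2 control replicate 1 or 3 or NTera-2 siSOX2 replicate 3. VIM, vimentin, changed by 0.29 in 2102Ep (adjusted p = 0.117) and -0.21 in NTera-2 (adjusted p = 0.417). The difference between the lines was called for MMP2 (1.92), TNC (1.86), FN1 (1.65) and ITGA5 (1.16), and for 1.66% of all genes. The summed level of these markers, as log2 of the summed signals, lay between 13.57 and 13.85 in 2102Ep control, 14.33 and 14.45 in 2102Ep siSOX2, 14.16 and 14.26 in NTera-2 control, and 14.31 and 14.40 in NTera-2 siSOX2 arrays.

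Markers of embryonal carcinoma were measured in all groups, with LIN28A at 12.68 to 13.11 and SALL4 at 10.76 to 11.31 over the group means, while POU5F1 and NANOG had no probe set of 1 gene. Of the 10 measured, 6 fell in 2102Ep and 4 in NTera-2 by adjusted p alone and 0 rose. The shares of all genes passing so, in either direction, were 12.7% and 4.94%. The median responses of the list were -0.50 and -0.17. Genes of undifferentiated cells that fell in both lines included DPPA4, by 0.86 in 2102Ep (adjusted p = 9.71e-05) and 0.50 in NTera-2 (adjusted p = 0.0232), and GDF3, by 0.88 (adjusted p = 2.2e-05) and 0.51 (adjusted p = 0.00934), on the log2 scale. DNMT3B, a DNA methyltransferase, and TNFRSF8, known as CD30, fell by 0.56 and 0.55 in 2102Ep. L1TD1, also of the list, went from 9.20 to 8.76 in 2102Ep and, further, from 9.22 to 8.43 in NTera-2. CRIPTO, a Nodal co-receptor, was called lower in both lines, by -1.16 in 2102Ep and -1.02 in NTera-2. Neither call was firm, since it was lost without 2102Ep control replicate 2 or 2102Ep siSOX2 replicate 1, and in NTera-2 without NTera-2 control replicate 2 or 3, without NTera-2 siSOX2 replicate 1 or 2 and with a trended prior. The summed level of the list was 15.11 to 15.34 and 14.73 to 14.89 in control and siSOX2 2102Ep arrays, and 15.16 to 15.46 and 15.13 to 15.27 in those of NTera-2. Of 10 fibroblast markers 3 passed by adjusted p alone in 2102Ep and 5 in NTera-2, in both directions, against 12.7% and 4.94% of all genes. The growth factor receptor genes PDGFRB and PDGFRA rose by 0.87 and 0.86 in 2102Ep, the collagen gene COL1A2 rose by 0.68 in NTera-2, and THY1, a surface glycoprotein gene, fell by 0.61 in 2102Ep and 0.86 in NTera-2 on the log2 scale. POSTN was the only one of them called in a knock-down, lower in NTera-2 by -1.69. DCN and LUM had group means of at most 3.97 and 4.43 on arrays whose lowest value was 1.57. Others of the list were brighter, with THY1 at 10.24 to 11.44 and FBLN1 at 9.43 to 10.05 over the group means. The summed level of the fibroblast list was 11.95 to 12.17 and 11.89 to 12.08 in control and siSOX2 2102Ep arrays, and 12.25 to 12.35 and 11.89 to 11.93 in those of NTera-2. The brightest gene weighs most in such a sum, here THY1, at 11.44 in NTera-2 control and 10.58 in NTera-2 siSOX2 cells. The median responses of the list were 0.14 in 2102Ep and 0.13 in NTera-2.

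The genes most like each of 4 cadherins were found by Pearson's r over the 12 arrays after each line's mean was removed. The arrays of a group share a treatment, so r mostly follows the 4 group means and is given as a description. For CDH1 they were SLIT3 (r = 0.991), SPSB4 (0.990) and YPEL2 (0.979), and SLIT3 changed by 0.37 in 2102Ep and 0.85 in NTera-2. For CDH2 they were NLGN4X (r = 0.984), a synaptic adhesion gene that changed by 0.80 and -0.61, BTBD3 (0.967) and PLAGL1 (0.962). For CDH6 they were ARID5A (r = 0.985), PEX5L (0.976) and ADM (0.972), and ADM, which encodes adrenomedullin, changed by -0.35 and -1.45. For CDH11 they were LGR5 (r = 0.996), a Wnt target and R-spondin receptor that changed by 4.84 and 1.18, MIXL1 (0.994), a homeobox factor of the primitive streak that changed by 3.42 and 1.17, and FMOD (0.994), a matrix proteoglycan that changed by 2.69 and 0.61.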

How the data were processed

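The authors deposited log2 signals per probe set, made with robust multi-array averaging (per the study's methods) in the manufacturer's software (version not given in the sources). Such values understate fold changes of dim genes, and the log base was inferred from the range (1.57 to 14.98). The platform annotation named 1 gene for 19158 of 32321 probe sets, and these were used, the brightest per gene (637 of 18404 genes had several). All 12 arrays were fitted with a mean per group (limma 3.58.1, R 4.3.3; two-sided; Benjamini-Hochberg over all genes in each of 5 contrasts). With 3 arrays against 3, a single gene tested by exact permutation reaches 0.1 at best, so the fit pools the spread across genes, and precision is limited by the few arrays. The cadherins and lists were chosen with earlier results of these data known. Named were all cadherins, SOX2, called list genes and otherwise up to 4 per list with the smallest adjusted p, adjacent genes and the 3 genes most like each of 4 cadherins; CTNNB1, VIM, LIN28A, SALL4, DCN and LUM were added as defining members. Plots used matplotlib 3.10.9 under Python 3.11.15.

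Tried as alternatives were a replicate block, fitting the compared groups alone, leaving out dim genes, centring arrays on their medians, a second quantile normalization, averaged probe sets, a trended robust prior, no fold threshold and leaving out each array. Promoters and the order of genes came from RefSeq on GRCh38.p14. Limma is also named, with no version, in the submitters' processing notes.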

Additional observations from a re-analysis of the deposited data

Results flagged for a closer look

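For 3 cadherins the response to siSOX2 differed between the lines by the test of the difference itself, at least 2-fold. The 2102Ep response exceeded the NTera-2 response by 2.24 for CDH11, by 1.97 for CDH2 and by 1.82 for CDH6 on the log2 scale. CDH11 rose in both lines, CDH2 rose in 2102Ep and fell in NTera-2, and CDH6 fell in NTera-2 alone by this test. CDH6 was already dim in 2102Ep control cells, at 6.43, so a fall had less room to show there. Line, transfection reagent and siRNA amount cannot be told apart in these differences.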

How the results depend on the processing

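The numbers of cadherins called, 3 in 2102Ep, 2 in NTera-2, 3 in the difference between the lines, 6 between the control lines and 2 between the siSOX2 lines, were equal under median centring, a second quantile normalization, averaged probe sets and a trended robust prior, and where run, with only the groups compared. Without genes below the median signal they were 2, 1, 2, 4 and 2, since CDH6 and CDH10 are below it. Over all genes the dim filter left 212, 66, 166, 866 and 818 calls against 364, 121, 305, 1429 and 1407, with fewer genes tested. Leaving out 1 array gave 2 to 3 in NTera-2 and equal counts otherwise. Without a fold threshold they were 5, 5, 5, 8 and 7, which brought in CDH1 in 2102Ep (0.71) and its difference in response (-0.83), CDH2 in NTera-2 (-0.76) and CDH2 between the siSOX2 lines (-0.61). Of all 18404 genes, 2330, 909, 957, 6900 and 6866 were then called. The change of the CDH2 minus CDH1 balance was 0.38 to 0.64 in 2102Ep and -2.43 to -2.20 in NTera-2 when 1 array was left out. The difference of CDH11 between the siSOX2 lines became -0.0692 after a second quantile normalization and ran from -0.0531 to 0.0961 when 1 array was left out, and the response of TFAP2A in NTera-2 from -0.180 to 0.0206. The cause was not tested.

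Arrays of the same replicate number did not deviate together in both lines (correlations of 0.0652, 0.179 and 0.128 in 2102Ep and -0.249, -0.206 and 0.136 in NTera-2), so the number was not taken as a pairing. With the replicate number as a block the counts of called cadherins were again 3, 2, 3, 6 and 2, and the adjusted p was 0.0507 for the CDH1 difference in response and 0.0524 for CDH3 in NTera-2. With 3 arrays a group, changes near 2-fold, such as CDH10 in 2102Ep and CDH11 in NTera-2, cannot be placed on either side of the threshold.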
